A study of Mus musculus with 60 samples.

Results

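The expression of 10 genes of elastic fibres, fibrillar collagens and mural cells was followed through mouse microglia RNA libraries: Eln, Fbln1, Fbln5, Fbn1, Col1a1, Col1a2, Col3a1, Dcn, Rgs5 and Acta2. They were taken by symbol, 10 of 22869 symbols in the count table, each through the transcript row that the table marks for its gene. The genes were chosen by name with earlier results of these libraries known, changes across stages and with LPS included. Every change below is therefore a description, and its adjusted p is no independent evidence. The libraries were made from poly(A) RNA of C57BL/6N mouse microglia, which are the brain's own macrophages. How the cells were isolated is not given in the sources used here, and no label names a genetic modification. By title there were 3 female and 4 male untreated libraries at embryonic day 18 (E18), 4 of each sex at postnatal day 4 (P4) and 10 of each sex at P14, all untreated. At P60 there were 7 female and 5 male libraries given saline and 6 female and 7 male given lipopolysaccharide (LPS), a bacterial cell wall component. Nothing in the labels ties the libraries to different animals, so the p-values measure the spread between libraries, which may be technical.

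Elastic fibres let vessel walls recoil. They consist of a core of cross-linked elastin, encoded by Eln, laid down on a scaffold of microfibrils whose main component is fibrillin-1, encoded by Fbn1, and fibulins such as the products of Fbln5 and Fbln1 help to assemble or bind them. Type I collagen, built from the Col1a1 and Col1a2 chains, and type III collagen, built from Col3a1, give tensile strength, and decorin, encoded by Dcn, is a small proteoglycan that binds collagen fibrils. Mural cells wrap vessels: pericytes of brain capillaries are marked by Rgs5, a regulator of G protein signalling, and smooth muscle cells of arterioles by Acta2, the smooth muscle actin. In the brain these genes are known from cells of the vessel wall, fibroblasts and meninges, among others, rather than from microglia. In bulk RNA fewer cells of a type and less RNA per cell cannot be told apart, so the levels below are those of the whole preparation.

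The promoters of 7 members were matched in RefSeq on GRCm38.p6. Those of Acta2, Rgs5, Fbln5, Col1a2 and Col3a1 are shown, and those of Fbln1 and Fbn1 are not. By the grouping given below, Rgs5 and Fbln5 stood together across the stages, as did Col1a2 and Col3a1. Each line gives the 150 bases directly before the annotated start, along the strand of the gene, with the motifs found in capitals. The motifs were searched on both strands of the 250 bases before the start.
Acta2, chr19:34255374-34255523, minus strand: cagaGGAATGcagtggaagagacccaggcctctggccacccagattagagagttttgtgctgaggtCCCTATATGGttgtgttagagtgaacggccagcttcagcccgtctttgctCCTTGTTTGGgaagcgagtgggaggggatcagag
Rgs5, chr1:169655351-169655500, plus strand: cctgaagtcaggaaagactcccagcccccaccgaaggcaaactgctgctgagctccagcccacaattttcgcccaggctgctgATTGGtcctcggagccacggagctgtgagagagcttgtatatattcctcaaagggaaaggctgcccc
Fbln5, the upstream of its starts, chr12:101819120-101819269, minus strand: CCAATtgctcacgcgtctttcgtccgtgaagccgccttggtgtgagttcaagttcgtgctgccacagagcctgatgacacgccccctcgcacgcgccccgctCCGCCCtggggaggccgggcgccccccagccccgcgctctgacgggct
Col1a2, chr6:4505468-4505617, plus strand: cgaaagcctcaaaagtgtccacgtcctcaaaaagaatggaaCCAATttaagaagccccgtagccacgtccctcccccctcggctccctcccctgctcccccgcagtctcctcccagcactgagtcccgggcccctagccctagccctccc
Col3a1, chr1:45311388-45311537, plus strand: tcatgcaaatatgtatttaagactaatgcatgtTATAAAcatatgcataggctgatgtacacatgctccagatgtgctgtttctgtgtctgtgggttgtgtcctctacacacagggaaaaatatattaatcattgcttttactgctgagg
In Acta2 the capitals mark 2 matches to the CArG box with 1 mismatch allowed, at -84 to -75 and -34 to -25 from the start, and the sequence CATTCC read on the other strand. A CArG box with 1 mismatch was in 7.245% of 32851 promoter windows of the same length, and CATTCC in 12.64%. In Fbln5 and Col1a2 they mark CCAAT, and in Rgs5 its reverse complement, which reads as CCAAT on the other strand. CCAAT was in 33.85% of windows. The capitals mark in Fbln5 also GGGCGG on the other strand, which 32.74% held. In Col3a1 they mark TATAAA, which 12.37% held. The searched windows of these genes held further matches before the bases shown. Col1a2 had a CArG box with 1 mismatch at -228 to -219 and GGGCGG, on either strand, at -205 to -200 and -188 to -183. Col3a1 had CATTCC, on either strand, at -168 to -163, and Fbln5 had GGGCGG, on either strand, at -221 to -216. A match is a run of letters and not a shown binding site.

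Totals ran from 802016 to 3497454 counts per library with a median of 1907007.5, and levels are counts per 1000000 counts of the library (CPM). Title and sex characteristic disagreed for 10 libraries. Sex was taken from the title, which Xist, the RNA of the inactive X chromosome, followed in 60 of 60 libraries. Whether the summed Y-linked genes stood above or below Xist followed the title in 59, the exception being the library labelled M_E18 replicate 4. Both checks use Xist. Ttr, a transcript of the choroid plexus, made up more than 10% of 3 libraries, M_E18 replicates 3 and 4 and F_P60_Sal replicate 6. No date in the library descriptions held libraries of 2 stages or of both treatments, so stage or treatment and date cannot be told apart. All 13 microglia markers were in the table, and the median of their summed level was 5483 CPM at E18 and 39299 CPM at P60 with saline. Markers of other cells were present in every group. Summed over the stages in order (E18, P4, P14 and P60 saline), the median of 9 pericyte markers was 336, 254, 189 and 75.5 CPM, that of 9 fibroblast markers 222, 245, 115 and 54.5 CPM, and that of 8 smooth muscle markers 149.8, 172, 189 and 239.5 CPM. Their part in the results below was not tested.

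**Figure D1:**
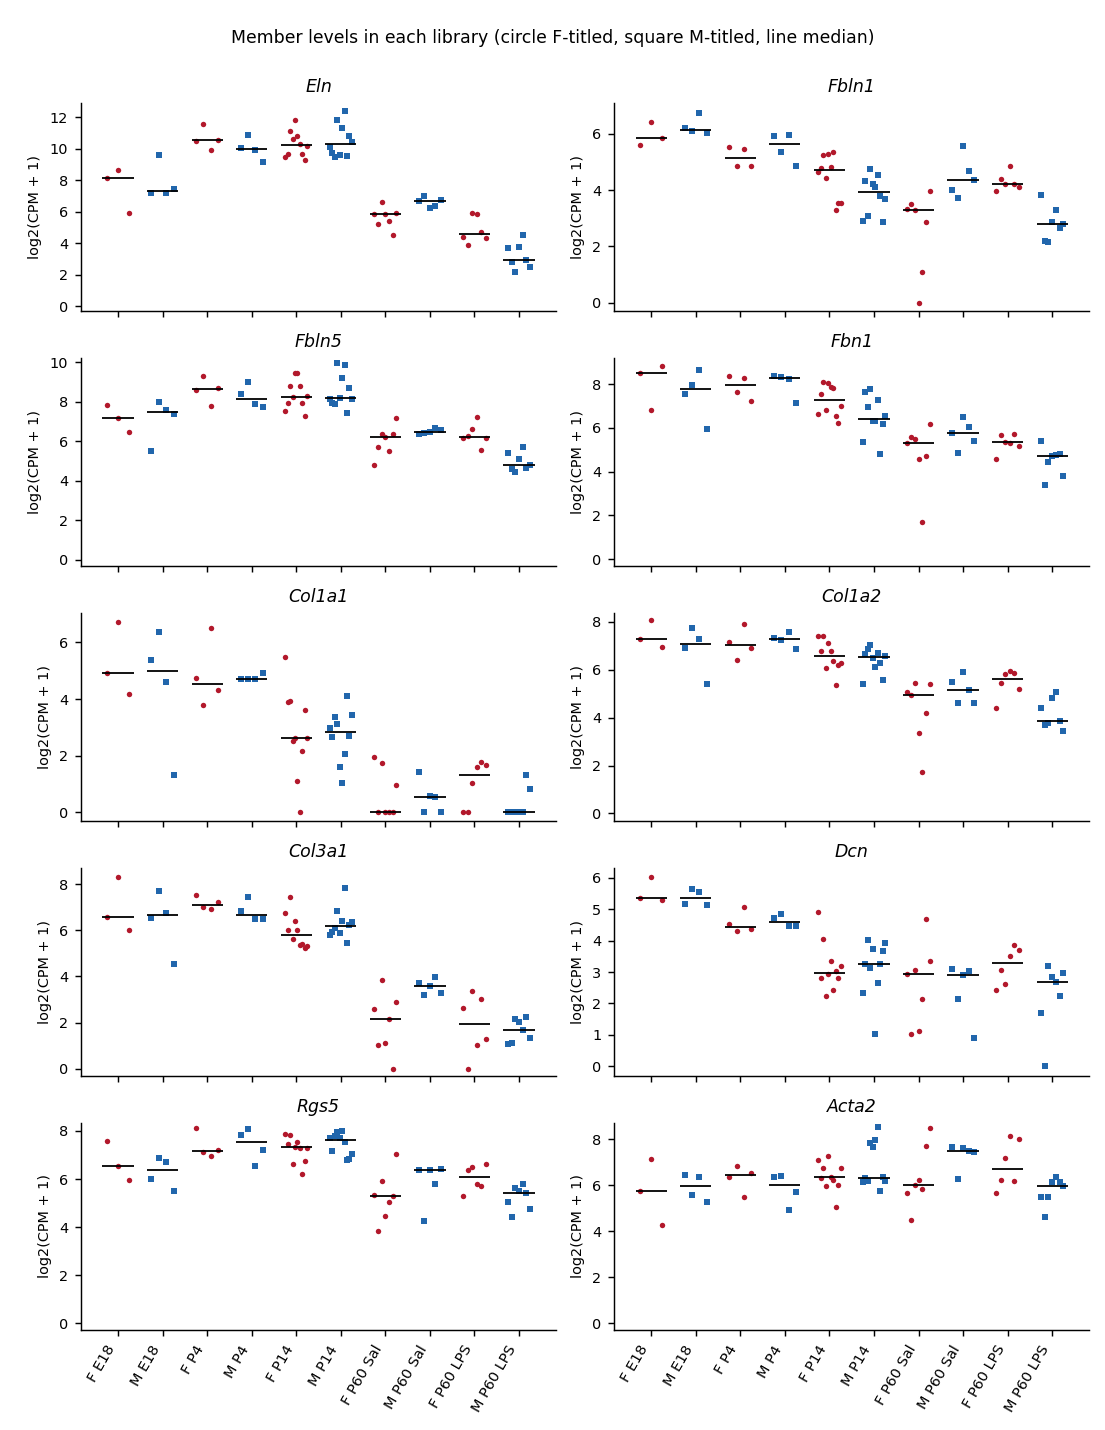
Level of each member in each of the 60 libraries, as log2(CPM + 1), by titled sex and stage or treatment (circles F-titled, squares M-titled, black line the group median). Eln stands highest at P4 and P14, Fbln5 and Col3a1 drop together between P14 and P60, and Acta2 shows no such drop.

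Across development the members were grouped by the steps that passed the test. There were 3 genes that rose after birth and fell by P60 (Eln, Fbln5, Rgs5), and 3 that fell between P4 and P14 (Fbln1, Dcn, Col1a1). For 3 the first fall to pass came between P14 and P60 (Fbn1, Col1a2, Col3a1), and Acta2 stood alone. Fbln1 also fell from E18 to P4, and Col1a1 again from P14 to P60. Differences between the genes were not tested. From E18 to P4, 3 of 10 members rose and 1 fell in edgeR's quasi-likelihood test at a Benjamini-Hochberg adjusted p under 0.05, where 48.3% of 13853 genes tested were called (25.5% higher, 22.7% lower). From P4 to P14, 1 rose and 3 fell, against 41.5% of genes called (20.6% higher, 20.8% lower). From P14 to P60 with saline 0 rose and 7 fell, where 44.1% of genes were called and 25.7% were called lower. The median log2 fold change of the members at that step was -1.61, against -0.06 over all genes tested. Over the whole span from E18 to P60, 1 member rose and 7 fell, against 66.3% of genes called (31.4% higher, 34.8% lower). The shares called among the members at the first 2 steps were near those of all genes. These fits held 47 libraries, and both sexes counted equally.

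Eln rose after birth and was low in the adult. It was at 287, 407 and 61.0 CPM in the 3 F-titled E18 libraries, and at 148, 776, 145 and 174 CPM in the 4 M-titled ones. At P4 it was at 1459, 3059, 951 and 1517 CPM in F-titled and 1047, 1861, 975 and 565 CPM in M-titled libraries. All P4 libraries but the lowest were thus above every E18 library. At P14 it ran from 638 to 5376 CPM with a median of 1206 over 20 libraries, and at P60 with saline from 22.4 to 128 CPM with a median of 68.2 over 12. No P60 saline library came near the lowest P14 library. The log2 fold change was 2.45 ± 0.44 (SE) from E18 to P4 (edgeR adjusted p = 1.23e-05), 0.50 ± 0.33 from P4 to P14 (adjusted p = 0.237) and -4.46 ± 0.37 from P14 to P60 (adjusted p = 7.81e-13), a 22.0-fold lower level. Ranges of P14 and P60 libraries that did not overlap, with P60 lower, occurred in 1.81% of all genes tested.

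Fbln5, whose product ties elastin to cells and is needed for elastic fibre assembly, followed the same order. It ran from 45.3 to 255 CPM at E18 (median 165), 213 to 640 CPM at P4 (median 361), 153 to 990 CPM at P14 (median 297) and 26.8 to 146 CPM at P60 with saline (median 83.2). E18 and P4 overlapped narrowly, and P14 and P60 did not overlap. The changes were 1.27 ± 0.35 from E18 to P4 (edgeR adjusted p = 0.00304), 0.38 ± 0.28 to P14 (adjusted p = 0.281) and -2.30 ± 0.27 to P60 (adjusted p = 5.58e-09). E18 and P60 differed by -0.65 ± 0.32 (adjusted p = 0.0686), and with DESeq2 by -0.83 (adjusted p = 0.0192).

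Fbn1, the microfibril component, fell between P14 and P60. Its medians were 248.8 CPM at E18, 303 CPM at P4, 117 CPM at P14 and 42.7 CPM at P60 with saline. The P14 libraries ran from 27.2 to 273 CPM and the P60 saline libraries from 2.28 to 89.8 CPM, so that the 2 stages overlapped. The change from P4 to P14 was -0.66 ± 0.29 (edgeR adjusted p = 0.0614) and from P14 to P60 -1.57 ± 0.29 (adjusted p = 2.40e-05). The first of these passed with DESeq2 (-0.77, adjusted p = 0.0273).

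Fbln1, a fibulin of microfibrils and basement membranes, declined earlier. It ran from 47.2 to 107 CPM at E18 (median 67.0), 27.97 to 61.3 CPM at P4 (median 41.5), 6.34 to 39.7 CPM at P14 (median 18.2) and 0 to 46.9 CPM at P60 with saline (median 11.2). Neighbouring stages overlapped, while every E18 library stood above every P60 saline library, an order that 13.4% of genes tested showed. It fell by 0.69 ± 0.30 on the log2 scale from E18 to P4 (edgeR adjusted p = 0.0493) and by 0.89 ± 0.24 from P4 to P14 (adjusted p = 0.00278), and was at -0.44 ± 0.25 from P14 to P60 (adjusted p = 0.145). The first of these calls held in 34 of 47 fits that each left out 1 library. The adjusted p was 0.107 without F_E18 replicate 2, the highest of the 47.

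The 3 collagen chains all fell from P14 to P60 with saline, to unequal levels. Col1a2 ran from 41.6 to 264 CPM at E18 (median 153), 82.9 to 235 CPM at P4 (median 146), 40.6 to 170 CPM at P14 (median 90.8) and 2.28 to 58.5 CPM at P60 with saline (median 31.3). Col3a1 ran from 21.9 to 314 CPM (median 95.3), 88.2 to 185 CPM (median 124), 36.4 to 230 CPM (median 63.6) and 0 to 14.5 CPM (median 7.27) at the same stages. For Col3a1 no P60 saline library reached the lowest P14 library, while Col1a2 overlapped slightly. Col1a1 was sparse: it ran from 1.46 to 104 CPM at E18 (median 29.6), 12.8 to 89.9 CPM at P4 (median 25.1) and 0 to 43.7 CPM at P14 (median 5.33), and it had 0 counts in 6 of the 12 P60 saline libraries.

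From P14 to P60, Col3a1 fell by 3.31 ± 0.32 (edgeR adjusted p = 2.55e-11), a 9.92-fold lower level, and Col1a2 by 1.60 ± 0.23 (adjusted p = 4.18e-07). Col1a1 fell by 1.55 ± 0.41 already from P4 to P14 (adjusted p = 0.00244) and was at -3.28 ± 0.62 from P14 to P60 (adjusted p = 3.68e-05). With P60 counts of 0 to 9 per library the size of the last change depends on few reads. Col1a2 and Col3a1 passed at neither of the first 2 steps, where their changes lay between -0.48 and 0.16. The unequal course of the Col1a1 and Col1a2 chains from P4 to P14 was not tested as a difference.

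Dcn fell between P4 and P14. It was at 34.3 to 64.1 CPM at E18 (median 40.4), 19.0 to 32.6 CPM at P4 (median 21.7), 1.02 to 28.9 CPM at P14 (median 7.92) and 0.842 to 24.9 CPM at P60 with saline (median 6.59). The E18 and P4 ranges did not overlap, which held with P4 lower for 6.34% of all genes tested. The change from E18 to P4 was -0.82 ± 0.36 (edgeR adjusted p = 0.0521), and -0.96 with DESeq2 (adjusted p = 0.0292). It fell by 1.04 ± 0.30 from P4 to P14 (edgeR adjusted p = 0.00418) and was at -0.61 ± 0.31 from P14 to P60 (adjusted p = 0.106). The table has 2 transcript rows for Dcn with 1709 counts in the row used and 1668 in the other.

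The 2 mural genes took different courses, a difference that was not tested. Rgs5 ran from 43.8 to 192 CPM at E18 (median 92.3), 92.9 to 280 CPM at P4 (median 148), 72.9 to 252 CPM at P14 (median 169) and 13.3 to 130 CPM at P60 with saline (median 46.7). Acta2 ran from 18.5 to 139 CPM (median 53.7), 29.6 to 113 CPM (median 81.0), 32.3 to 365 CPM (median 79.4) and 21.6 to 354 CPM (median 126) at the same stages, with all neighbouring stages overlapping. Rgs5 rose by 0.96 ± 0.31 from E18 to P4 (edgeR adjusted p = 0.0105) and fell by 1.61 ± 0.24 from P14 to P60 (adjusted p = 4.47e-07). The rise was not called without F_E18 replicate 2 (0.80, adjusted p = 0.0534) or without F_E18 replicate 3 (0.73, adjusted p = 0.0665). Acta2 rose by 0.94 ± 0.35 from P4 to P14 (adjusted p = 0.0292) and was at 0.30 ± 0.29 from P14 to P60 (adjusted p = 0.425, 95% interval -0.28 to 0.87).

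The Acta2 rise to P14 held in 38 of 47 fits without 1 library and was lost with upper-quartile scaling (0.83, adjusted p = 0.0620). Without M_P4 replicate 3 it was 0.79 (adjusted p = 0.0950), the weakest of those fits. The 4 M-titled libraries of the second P14 date held 203, 226, 251 and 365 CPM, while the 6 M-titled libraries of the other P14 dates ran from 52.7 to 80.6 CPM and the 10 F-titled ones from 32.3 to 153 CPM. Those 4 libraries were singled out after their Acta2 levels were seen. How many genes separate them in this way was not counted. Their totals ran from 939945 to 1043284 counts, where those of M-titled P14 libraries reached 2450981. Among smooth muscle markers, 3 of 8 rose at the same step, with Myh11, the smooth muscle myosin, at 1.28 ± 0.35 and Tagln, an actin-binding protein, at 1.13 ± 0.31 (adjusted p = 0.00316 and 0.00328).

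Over the whole span from E18 to P60 with saline, Col1a1 fell by 5.11 ± 0.64, Col3a1 by 3.63 ± 0.35, Dcn by 2.47 ± 0.35, Fbn1 by 2.17 ± 0.34, Fbln1 by 2.02 ± 0.29, Col1a2 by 1.90 ± 0.28 and Eln by 1.51 ± 0.37 (edgeR adjusted p at most 4.43e-04). Acta2 rose by 1.43 ± 0.41 (adjusted p = 0.00210). Rgs5, at -0.45 ± 0.29 (adjusted p = 0.168), was not called. Leaving out the library labelled M_E18 replicate 4 kept these 8 calls, with Eln at -1.66 and Acta2 at 1.33. It also kept the 4 calls from E18 to P4, with Eln at 2.30, Fbln5 at 1.28, Rgs5 at 0.83 and Fbln1 at -0.73.

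**Figure D2:**
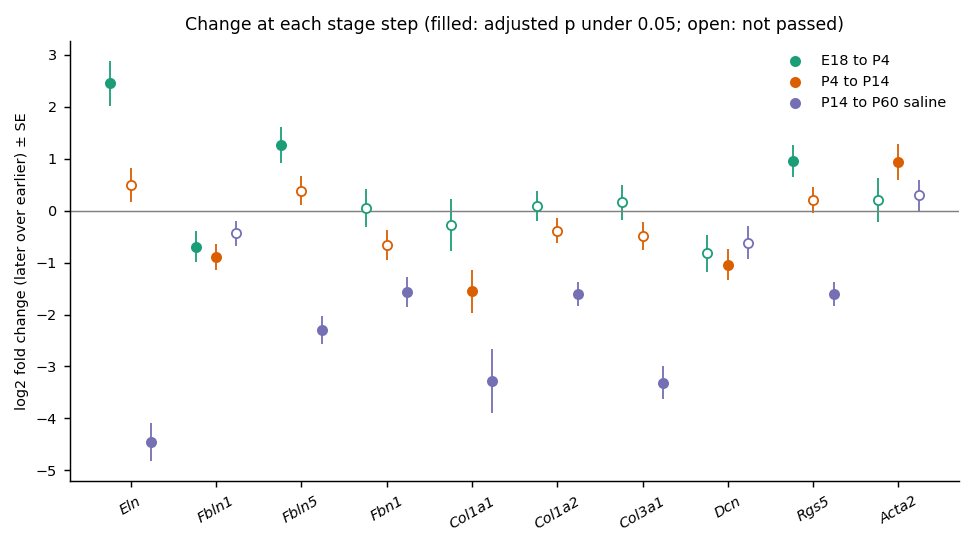
Log2 fold change of each member (later over earlier stage, with its SE as the bar) at the 3 stage steps, from the edgeR fit of 47 libraries. Filled points passed an adjusted p under 0.05: Eln is at 2.45 from E18 to P4 and -4.46 from P14 to P60, and 7 of the 10 members are filled and below 0 at the last step.

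Per kilobase of transcript, Eln had the highest median level of the members at E18 (45.1 CPM per kb), P4 (325 CPM per kb) and P14 (313 CPM per kb). At E18 its range, 15.8 to 201 CPM per kb, overlapped that of Col1a2 below it (7.78 to 49.4 CPM per kb). At P4 its lowest library, at 147 CPM per kb, stood above the highest Fbln5 value, 109.8 CPM per kb, and Fbln5 was next. At P14 the ranges overlapped again. At P60 with saline Acta2 had the highest median, 61.9 CPM per kb with a range of 10.6 to 174, followed by Eln at 17.7 CPM per kb (5.82 to 33.3) and Fbln5 at 14.3 CPM per kb (4.60 to 25.1), all overlapping. With LPS, Acta2 (34.8 CPM per kb) led Rgs5 (11.97 CPM per kb) and Eln ranked 7. Col1a1 was the lowest in every one of the 5 conditions.

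The other genes of the same matrix were read from fixed lists. From P14 to P60, 44.1% of all genes tested were called and 25.7% were called lower. At this step 9 of 16 tested elastic fibre and microfibril genes fell and 1 rose, with a median of -1.44. Among those that fell were Lox, the enzyme that cross-links elastin and collagen (-2.60 ± 0.26), the fibulin Fbln2 (-2.77 ± 0.29), the microfibril protein Mfap2 (-2.92 ± 0.34) and Emilin2 (-1.57 ± 0.21), while Efemp2, another fibulin, rose by 0.51 ± 0.19. At the earlier steps 3 of 16 rose and 3 fell from E18 to P4, and 3 rose and 7 fell from P4 to P14. Mfap4 fell at both of those steps (-2.45 ± 0.35 and -1.29 ± 0.31), as did Mfap2 (-1.92 ± 0.27 and -0.82 ± 0.23), and Fbn2, the fibrillin of early development, fell from P4 to P14 (-1.69 ± 0.35). Lox rose from P4 to P14 (0.84 ± 0.25).

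Of 16 other collagens and small proteoglycans, 9 fell and 2 rose from P14 to P60, with a median of -0.80. Col5a2, a type V chain that joins type I and III fibrils, fell by 3.19 ± 0.30, Col18a1 by 1.57 ± 0.22 and the proteoglycan Bgn by 1.27 ± 0.21, while Col6a3 rose by 1.12 ± 0.24. From P4 to P14, 7 of the 16 fell and 2 rose, with Col12a1 at -1.95 ± 0.27 and Col5a1 at -1.79 ± 0.26. Of 13 basement membrane genes, 12 fell from P14 to P60 and 0 rose, with Col4a1 at -2.34 ± 0.21, Col4a2 at -2.29 ± 0.22 and the laminin chain Lamc1 at -1.72 ± 0.18 (edgeR adjusted p at most 1.19e-10). Beside these, 7 of 9 pericyte markers fell at that step (Pdgfrb, the pericyte growth factor receptor, at -1.06 ± 0.22), 4 of 8 tested fibroblast markers fell (Pdgfra at -1.69 ± 0.35), 5 of 14 endothelial markers fell and 2 rose, and 0 of 8 smooth muscle markers passed in edgeR, with 1 at an unadjusted p under 0.05 and 1 called by DESeq2. Microglia markers went the other way, with 7 of 13 higher and 0 lower.

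Given LPS at P60, 5 of 8 tested members fell in M-titled libraries and 0 passed in F-titled ones. Of the 10 members, 8 had counts enough to be tested in the fit of 25 P60 libraries, Col1a1 and Col3a1 being too low. In males 5 of the 8 fell and 0 rose, where 19.5% of 10538 genes were called and 7.57% were called lower. In females 0 of 8 passed in edgeR, where 5.06% of genes were called, although Eln, Fbln1 and Col1a2 had an unadjusted p under 0.05 and DESeq2 called Fbln1. In the mean of the sexes Eln alone passed, at -1.97 ± 0.25 (adjusted p = 8.53e-07), against 14.4% of genes called and 3.95% called lower. The test of sex by LPS, the change in males minus that in females, called 3 of 8 members lower, where 0.883% of all genes were called and 0.588% called lower. The median of that difference was -1.71 over the 8 members and -0.01 over all genes. Library totals also differed. They ran from 1982338 to 3228801 counts in M-titled saline libraries and from 845976 to 1332163 in M-titled LPS libraries, with no overlap. In F-titled libraries they ran from 802016 to 3169966 with saline and from 804990 to 1401251 with LPS (medians 974197 and 1062294). The part of depth in the LPS results was not tested.

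Eln was at 101, 128, 76.2, 79.9 and 106 CPM in the M-titled saline libraries and from 3.50 to 21.9 CPM with LPS (median 6.76, n = 7). The male groups did not overlap, which held with LPS lower for 4.96% of genes tested. Eln had 3 to 20 counts in the M-titled LPS libraries, so the size of its change there depends on few reads. In F-titled libraries it ran from 22.4 to 96.1 CPM with saline (median 56.5, n = 7) and from 13.7 to 59.6 CPM with LPS (median 22.7, n = 6), which overlapped. It fell by 3.25 ± 0.37 in males (edgeR adjusted p = 4.02e-07), a 9.52-fold lower level, and was at -0.69 ± 0.33 in females (adjusted p = 0.334). The male fall was called in all 25 fits without 1 library, from -3.56 to -3.05, and with each of the 6 P60 dates left out. With the sex characteristic in place of the title it was -2.05 (adjusted p = 0.00659). The difference between the sexes was -2.56 ± 0.50 (adjusted p = 0.0344).

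The change of Fbln1 had opposite signs in the titled sexes. It was at 15.1, 12.1, 46.9, 24.96 and 19.8 CPM in M-titled saline libraries and from 3.50 to 13.3 CPM with LPS (median 6.01), and from 0 to 14.8 CPM with saline (median 8.91) against 14.8 to 27.8 CPM with LPS (median 17.5) in F-titled ones. With LPS every F-titled library was above every M-titled one, a separation with males lower that 0.418% of genes tested showed. The M-titled LPS libraries held only 3 to 12 counts of Fbln1. Fbln1 fell by 1.70 ± 0.42 in males (edgeR adjusted p = 0.00485) and was at 1.35 ± 0.41 in females (adjusted p = 0.0517). The difference was -3.05 ± 0.59 (adjusted p = 0.0344). Without the third saline date the male change was -1.10 (adjusted p = 0.128) and the female change 1.56 (adjusted p = 0.0220).

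Fbln5 was at 83.0, 84.2, 89.3, 101 and 95.5 CPM in M-titled saline libraries and from 21.0 to 51.5 CPM with LPS (median 27.0), with no overlap. Ranges of the male groups that did not overlap, with LPS lower, occurred in 4.96% of genes tested. In F-titled libraries it ran from 26.8 to 146 CPM with saline (median 74.0) and from 46.2 to 152 CPM with LPS (median 74.5). It fell by 1.40 ± 0.30 in males (edgeR adjusted p = 0.00125), was at 0.28 ± 0.28 in females (adjusted p = 0.744), and the difference was -1.68 ± 0.41 (adjusted p = 0.0448).

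The 3 differences between the sexes were close to the threshold. Without 1 library, Eln and Fbln1 each passed in 12 of 25 fits and Fbln5 in 7, with adjusted p-values up to 0.0996, 0.0996 and 0.107 and estimates from -2.87 to -2.26, -3.23 to -2.64 and -1.88 to -1.38. The highest of these came without M_P60_Sal replicate 4. Leaving out a date ended the calls of Eln and Fbln1 for 4 of the 6 dates and that of Fbln5 for 5, with adjusted p-values up to 0.159, 0.110 and 0.220. With the sex characteristic in place of the title they were -0.49, -1.92 and -0.88, with adjusted p-values of 0.746, 0.278 and 0.416. Under those labels 1 member fell in males and 1 in females, Eln both times.

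Fbn1 and Acta2 fell in males by 1.13 ± 0.38 (edgeR adjusted p = 0.0364) and 1.40 ± 0.50 (adjusted p = 0.0493). Fbn1 was at 53.7, 28.2, 89.8, 64.5 and 41.7 CPM with saline and 9.46 to 41.0 CPM with LPS, and Acta2 at 201, 75.9, 193, 177 and 176 CPM with saline and 23.6 to 82.2 CPM with LPS. Both pairs of groups overlapped. The calls held in 10 and 5 of 25 fits without 1 library, and the adjusted p reached 0.145 without M_P60_Sal replicate 3 for Fbn1 and 0.111 without M_P60_LPS replicate 2 for Acta2. Both were lost with any date but the second saline date left out. In F-titled libraries the changes were 0.18 ± 0.37 and 0.35 ± 0.47, with 95% intervals of -0.54 to 0.90 and -0.58 to 1.28. Acta2 differed by date in F-titled saline libraries, where it was at 208 and 354 CPM on the third saline date and from 21.6 to 75.2 CPM in the other 5. Without that date the LPS change in females was 1.52 (adjusted p = 0.0406).

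The remaining members did not pass with LPS in either sex. Col1a2 was at 43.6, 23.5, 58.5, 34.0 and 23.1 CPM in M-titled saline libraries and 9.76 to 32.9 CPM with LPS, and from 2.28 to 42.2 CPM with saline and 19.97 to 60.8 CPM with LPS in F-titled ones, giving -0.89 ± 0.40 in males (edgeR adjusted p = 0.114) and 0.85 ± 0.37 in females (adjusted p = 0.268). Rgs5 was at -0.62 ± 0.39 in males and 0.57 ± 0.38 in females, and Dcn at 0.02 ± 0.60 and 0.27 ± 0.55. Col3a1, which was not tested, was at 12.2, 8.05, 11.1, 14.5 and 8.84 CPM in M-titled saline libraries and from 1.11 to 3.76 CPM with LPS. These male groups did not overlap, but they rest on 21 to 32 counts with saline and 1 to 5 counts with LPS. Such a separation occurred in 4.96% of genes tested, which leave out Col3a1. In F-titled libraries Col3a1 ran from 0 to 13.2 CPM and from 0 to 9.25 CPM. Col1a1 had 0 counts in 7 of 13 LPS libraries and at most 3 counts in the others.

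**Figure D3:**
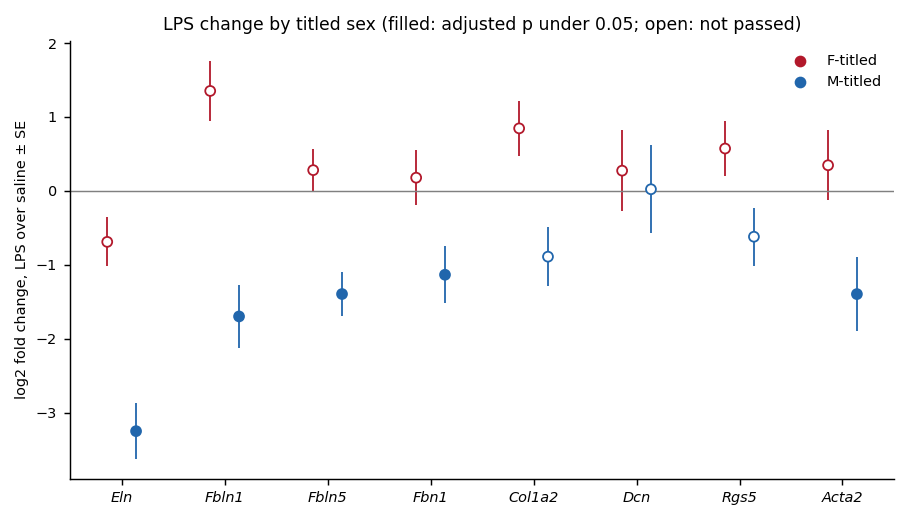
Log2 fold change with LPS over saline (SE as the bar) in F-titled and M-titled P60 libraries for the 8 members tested, filled where the adjusted p was under 0.05. The male points of Eln, Fbln1, Fbln5, Fbn1 and Acta2 are filled and below 0, and no female point is filled.

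The medians of the summed pericyte, smooth muscle, fibroblast, endothelial and choroid plexus markers were lower with LPS in M-titled libraries and higher in F-titled ones, while those of other cell types did not follow this order. In M-titled libraries the summed pericyte markers went from a median of 138 to 57.6 CPM with LPS, the smooth muscle markers from 453.5 to 158.5 CPM, the fibroblast markers from 68.5 to 30.3 CPM and the endothelial markers from 3058 to 1395 CPM. In F-titled libraries the same sums went from 53.5 to 100.2 CPM, from 161 to 287 CPM, from 36.9 to 56.6 CPM and from 1537 to 2278 CPM. The choroid plexus markers went from 71595 to 24538 CPM in males and from 44348 to 50885 CPM in females, and microglia markers from 33600 to 32288 CPM and from 40270 to 32318 CPM. Astrocyte markers went from 174 to 309 CPM in males and from 205 to 362 CPM in females, and oligodendrocyte markers from 127 to 69.1 CPM and from 145 to 73.9 CPM. Neuron markers went from 16.8 to 4.38 CPM in males and from 14.3 to 13.1 CPM in females, and red blood cell markers from 5.45 to 3.00 CPM and from 17.04 to 3.26 CPM. Every pericyte, smooth muscle and endothelial marker had counts in each of these groups, while the fibroblast markers Crabp2 (both F-titled groups), Aldh1a2 (F-titled with LPS) and Dpt (M-titled with LPS) were at 0. Of the 14 endothelial markers 8 fell and 0 rose in males and 2 rose and 0 fell in females. At an unadjusted p under 0.05, Cldn5, a tight junction protein (-1.37 ± 0.44), Kdr (-1.01 ± 0.32) and Tek (-0.91 ± 0.32) were also lower in females. Cdh5, Tie1 and Slc2a1 were higher there. Sex by LPS was called for Cldn5 (-3.54 ± 0.71) and Tie1 (-1.99 ± 0.39, adjusted p = 0.0344 for both). The part of these cell types in the LPS results of the members was not tested.

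Other matrix genes also fell in males. There 3 of 9 tested elastic fibre and microfibril genes fell with LPS (Ltbp4, which guides elastin assembly, by 1.88 ± 0.46, Fbln2 by 1.53 ± 0.36 and Ltbp3 by 1.37 ± 0.38) and Emilin2 rose. Of 10 other collagens and small proteoglycans, Col5a2 fell by 1.55 ± 0.32 and Col18a1 by 1.26 ± 0.34 in males, and both were called in the test of sex by LPS (-1.89 ± 0.45 and -1.99 ± 0.47). In females 0 genes of either list passed in edgeR or DESeq2, with 3 and 2 at an unadjusted p under 0.05. Of 13 basement membrane genes, 5 rose and 0 fell in females, with Col4a1 at 2.06 ± 0.33 and Col4a2 at 1.77 ± 0.36, and 3 fell and 0 rose in males, with Nid2 at -0.76 ± 0.19. The list genes given here for the separate sexes and for sex by LPS were named after their values were seen.

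Matrix proteases and their inhibitors rose in the mean of the sexes: 9 of 12 tested rose and 0 fell, with a median of 1.12. Of all genes tested, 14.4% were called in that comparison. Adamts4, a protease of large proteoglycans, rose by 5.45 ± 0.50, the collagenases Mmp8 and Mmp13 by 4.41 ± 0.53 and 3.52 ± 0.44, and Timp1, an inhibitor of metalloproteases, by 4.25 ± 0.50 (edgeR adjusted p at most 6.67e-07). In the test of sex by LPS 0 of these 12 passed in edgeR, with 4 at an unadjusted p under 0.05, and DESeq2 called 2 lower.

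**Figure D4:**
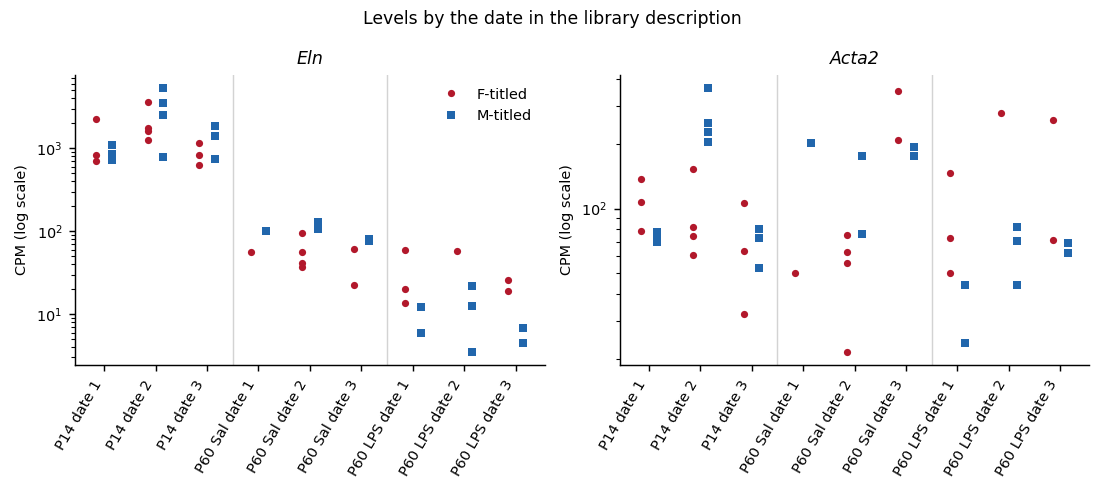
CPM of Eln and Acta2 on a log axis in each P14 and P60 library, by the dates in the library descriptions in order within each condition (circles F-titled, squares M-titled). Eln separates P14 from P60 saline on every date, and Acta2 is high in the 4 M-titled libraries of the second P14 date and in the 2 F-titled libraries of the third saline date.

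Titled sex was compared within each stage and treatment. No member passed in males over females at E18, P4, P14 or P60 with saline in edgeR, where 0.0722%, 0.0433%, 0.0433% and 0.0569% of genes were called. At an unadjusted p under 0.05 there were 0 members at E18 and P4, 1 at P14 (Fbln1, -0.76 ± 0.29) and 2 with saline at P60 (Fbln1, 1.58 ± 0.40, and Eln, 0.84 ± 0.32, adjusted p = 0.433 and 0.440). DESeq2 also called 0 members in these 4 comparisons. In LPS libraries Fbln5 was lower in males by -1.40 ± 0.29 (adjusted p = 0.0434), where 0.142% of genes were called and 0.0380% were called lower. That call was lost in 16 of 25 fits without 1 library, with an adjusted p of 0.186 without F_P60_LPS replicate 4. Eln was at -1.72 ± 0.38 (adjusted p = 0.0552) and passed with DESeq2 (adjusted p = 0.00468).

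Over the 60 libraries the gene outside the 10 members most like Eln in Spearman correlation of log2(CPM + 1) was Col5a2 (rho = 0.94), followed by Htra1 (0.932) and Gja5 (0.918). The same 3 genes led among non-members for Fbln5 (Gja5 0.935, Col5a2 0.93, Htra1 0.92), and Eln and Fbln5 correlated with each other at 0.958. Members left out here and below, Fbn1 was closest to Frem2 (0.962), Fbln1 to Maged1 (0.941), Col1a1 to Sepn1 (0.893), Col1a2 to Col18a1 (0.918), Col3a1 to Nid1 (0.925), Dcn to Lum (0.814) and Rgs5 to Itga1 (0.901). Over the 60 libraries Acta2 stood apart from the other members, with correlations of -0.0183 to 0.403. It was closest to the smooth muscle genes Tagln (0.906), Myl9 (0.864) and Tpm2 (0.753). In the 25 P60 libraries alone it did not stand apart, with correlations of 0.216 (Col3a1) to 0.782 (Fbln5) with the other members. There it was again closest to Myl9 (0.917) and Tagln (0.914). Eln was closest to Hspa12b (0.905) and Rgs5 to Pde5a (0.876), followed by the pericyte marker Vtn (0.855). Fbln1 and Col1a2 were closest to Slc29a4 (0.9 and 0.878), Fbln5 to Bcam (0.88) and Fbn1 to Wwc1 (0.952). Col1a1 was closest to Nek4 (0.721), Col3a1 to Slc30a10 (0.786) and Dcn to Anxa5 (0.753). These are descriptions over 11812 genes with a mean of at least 5 CPM (11809 at P60), and the points share stages, libraries and depth.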

How the data were processed

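The deposited values are whole-number counts per transcript for 60 libraries, as the authors provide them. Per the submitters' processing notes, CASAVA 1.8.2, edgeR and mm9 were used. The aligner, the counting program and its use of strand are missing from the sources used here. Reads of Eln and Fbn1 could then include those of overlapping genes on the opposite strand, and those of Col3a1 of 1 on the same strand. For 21988 of 22869 symbols the marked row was used and for 881 the row with most counts. The 47 libraries of the time course and the 25 of P60 were fitted separately by sex and stage or treatment, with edgeR 4.0.16 in R 4.3.3 (default filter, TMM scaling, robust quasi-likelihood F tests, two-sided, Benjamini-Hochberg over all genes tested, checked on simulated data). Transcript lengths came from GENCODE vM21. Likeness used a mean of at least 5 CPM. The members and lists were chosen with earlier results of these data known. Named genes are all members and, per list and comparison, up to 4 called genes of smallest p in the main direction and 2 against it, with exceptions named in the text. Replicate numbers paired F_P4 with M_P4 (correlations 0.413 to 0.575, shared dates) and F_E18 with F_P4 (0.166 to 0.496). No library was a copy of another (chi-square per gene 2.04 to 109). Alternatives were DESeq2 1.42.0, other scalings, filters, rows, sex labels, blocks and left-out libraries or dates.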

Additional observations from a re-analysis of the deposited data

Results flagged for a closer look

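In groups of 4 to 10 libraries, 10 of 90 tests for a library far from the others in its group passed Dixon's criterion. Chance flags about 1 in 20 where values are normally distributed. That was not checked for these CPM values, so the 2 rates cannot be compared. Eln was at 776 CPM in M_E18 replicate 2, where the next was at 174 CPM. Col1a1 was at 29.3 CPM in M_P4 replicate 4 and at 43.7 CPM in F_P14 replicate 1, the highest of their groups. Col3a1 was highest in F_P14 replicate 3 at 175 CPM and in M_P14 replicate 7 at 230 CPM (229.8). Dcn was highest in F_P14 replicate 1 at 28.9 CPM and in F_P60_Sal replicate 6, where Ttr took over 10% of the counts, at 24.9 CPM. Rgs5 was highest in F_P4 replicate 1 at 280.0 CPM and in F_P60_Sal replicate 7 at 130 CPM (129.6). Acta2 was lowest in M_P60_Sal replicate 2 at 75.9 CPM, against 176 CPM in the next.

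The LPS effect differed between titled sexes by a test of the difference itself for Eln (-2.56), Fbln1 (-3.05) and Fbln5 (-1.68), with edgeR adjusted p-values of 0.0344, 0.0344 and 0.0448.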

How the results depend on the processing

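The 7 falls from P14 to P60, the 8 calls from E18 to P60 and the fall of Eln in males with LPS kept their direction and passed under every alternative run. Calls near the threshold did not, and the cause was not tested. DESeq2-type scaling shifted the all-gene median from 0.03 to -0.10 from E18 to P4, from -0.01 to -0.12 from P4 to P14 and from -0.08 to -0.26 from E18 to P60. Counts near 0, as of Col1a1 at P60, limit the precision.

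The count of members called from P4 to P14 was 2 with the replicate block, where Col1a1 (adjusted p = 0.0516) and Acta2 (0.0843) were lost. No called member from E18 to P4 was lost with the replicate block. For LPS in the mean of the sexes it was 2 with upper-quartile scaling, without libraries over 10% Ttr and without the first saline or the second LPS date, and 3 without the second saline date. In females it was 1 with no filter, the row with most counts, the sex characteristic and DESeq2, and 2 without the third saline date. In males it was 1 with the sex characteristic, 2 without the third saline date, and 3 without the first saline or the first LPS date. For sex by LPS it was 0 with the sex characteristic and without the first or second saline date or the second or the third LPS date. For males over females with LPS it was 0 with DESeq2-type scaling, summed rows, the sex characteristic, the replicate block and without the second saline date or any LPS date, 2 with the date block, without libraries over 10% Ttr and without the third saline date, and 3 with DESeq2. Leaving out 1 library gave 2 to 5 calls from E18 to P4, 3 to 5 to P14, 7 to 8 to P60, 8 to 10 from E18 to P60, 1 to 2 for LPS in the mean, 0 to 1 in females, 3 to 6 in males, 0 to 4 for sex by LPS, 0 to 2 for males over females with LPS and 0 to 0 for the other sex comparisons.

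Changes that did not pass took the other sign 41 times under alternatives that left out no single library. DESeq2-type scaling gave Fbn1 -0.034 (E18 to P4), Col1a2 -0.035 (E18 to P4). Upper-quartile scaling gave Fbn1 -0.052 (E18 to P4), Col1a2 -0.040 (E18 to P4), Dcn -0.056 (LPS males). Summed rows gave Fbn1 -0.0046 (E18 to P4), Col1a2 -0.011 (E18 to P4). DESeq2 gave Fbn1 -0.030 (E18 to P4), Col1a2 -0.031 (E18 to P4), Col1a2 0.0035 (LPS mean of sexes). The replicate block gave Col1a1 0.014 (E18 to P4), Col1a2 0.075 (LPS mean of sexes), Rgs5 0.11 (LPS mean of sexes), Dcn -0.39 (LPS males). No library over 10% Ttr gave Col1a2 -0.13 (E18 to P4), Col3a1 -0.17 (E18 to P4). Leaving out the third saline date gave Fbln1 0.23 (LPS mean of sexes), Col1a2 0.15 (LPS mean of sexes), Rgs5 0.26 (LPS mean of sexes), Acta2 0.13 (LPS mean of sexes). The row with most counts gave Col1a2 0.017 (LPS mean of sexes), Rgs5 0.022 (LPS mean of sexes). The sex characteristic gave Col1a2 0.044 (LPS mean of sexes), Rgs5 0.011 (LPS mean of sexes), Fbln5 -0.059 (LPS females), Fbn1 -0.18 (LPS females), Dcn -0.77 (LPS males). Leaving out the first saline date gave Col1a2 0.077 (LPS mean of sexes), Rgs5 0.034 (LPS mean of sexes), Dcn 0.042 (sex by LPS). Leaving out the first LPS date gave Col1a2 0.13 (LPS mean of sexes), Rgs5 0.088 (LPS mean of sexes). Leaving out the third LPS date gave Col1a2 0.091 (LPS mean of sexes). Leaving out the second saline date gave Dcn -0.47 (LPS mean of sexes), Fbn1 -0.15 (LPS females), Dcn -0.53 (LPS females), Acta2 -0.44 (LPS females), Dcn -0.41 (LPS males), Dcn 0.12 (sex by LPS). Leaving out the second LPS date gave Dcn -0.097 (LPS mean of sexes), Dcn -0.43 (LPS males). Without 1 library the log2 fold changes whose range crossed 0 were Fbn1 -0.20 to 0.20 (E18 to P4), Col1a1 -0.75 to 0.14 (E18 to P4), Col1a2 -0.12 to 0.20 (E18 to P4), Col3a1 -0.14 to 0.54 (E18 to P4), Acta2 -0.12 to 0.58 (E18 to P4); Fbln1 -0.24 to 0.010 (LPS mean of sexes), Col1a2 -0.10 to 0.089 (LPS mean of sexes), Rgs5 -0.094 to 0.21 (LPS mean of sexes), Fbn1 -0.025 to 0.38 (LPS females), Dcn -0.19 to 0.27 (LPS males).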

Other observations

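The genes that process collagen changed in both directions. From P14 to P60 with saline, 5 of 12 collagen synthesis enzymes and chaperones fell and 4 rose in edgeR. Of all genes tested, 44.1% were called at that step and 25.7% were called lower. Serpinh1, the collagen chaperone, fell at each of the 3 stage steps, by 1.20 ± 0.30, 0.67 ± 0.23 and 1.12 ± 0.23 on the log2 scale. Of the prolyl hydroxylase genes, P4ha2 fell by 1.15 ± 0.29 from E18 to P4 (adjusted p = 0.00131) and rose by 0.94 ± 0.23 from P14 to P60, while Leprel1 rose by 2.04 ± 0.26, 1.10 ± 0.19 and 1.07 ± 0.15 at the 3 steps, and P4ha1 by 0.74 ± 0.13 from P4 to P14 and 0.90 ± 0.11 from P14 to P60. Bmp1, which cleaves procollagen, fell by 1.16 ± 0.14 from P14 to P60.

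Among matrix proteases and inhibitors, 4 of 14 rose and 4 fell from P4 to P14, and 3 rose and 7 fell from P14 to P60. Of all genes tested, 20.6% were called higher and 20.8% lower from P4 to P14. From P14 to P60, 44.1% were called and 25.7% were called lower. Mmp9 fell by 1.52 ± 0.32 from P4 to P14, and Mmp19 and Adamts4 fell by 1.79 ± 0.15 and 3.43 ± 0.51 from P14 to P60.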
